A study of Mus musculus with 14 samples.

Results

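The 31 genes described here encode proteins of the cell division cycle, and they were followed in macrophages that had entered the inflamed central nervous system. They were listed by gene symbol, 10 for DNA replication, 19 for mitosis and 2 that dividing cells share with other cells, Stmn1 and Hmgb2. All 31 were among the 19940 genes of the deposited table, and all 31 were among the 12096 genes that passed the filter on low values and were tested. The cells were monocyte-derived macrophages sorted at the peak of EAE (experimental autoimmune encephalomyelitis), which models multiple sclerosis in mice. There were 14 RNA sequencing libraries, 7 from wt cells of CD45.1 donors and 7 from mCAT cells of CD45.2 donors whose titles read CCR2creERT2/+ mcat lsl/wt, that is, heterozygous for a tamoxifen-inducible Cre at the Ccr2 gene and for a Cre-dependent catalase directed to mitochondria. Both groups carry the tamoxifen label, and both came from bone marrow chimeras: lethally irradiated hosts were given equal numbers of marrow cells of the 2 genotypes. The Cre acts where Ccr2 is active, as in monocytes, so the model changes cells of that lineage. Cells were separated by donor marker. The labels used here give neither the hosts' genotype or number nor any age or sex.

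Each library also carries a code, such as C1_2, and 12 of the 14 libraries share such a code stem with 1 library of the other genotype (6 stems of 2 libraries each). The wt 1 library (stem C1_1) and the mCAT 3 library (stem C1_4) have no partner. The first part of the code, here called the prefix, was C1 in 8 libraries and C2 in 6, with both genotypes in each. What the prefix and the stem stand for is not stated. Nothing says which libraries came from separate animals, so p-values measure the spread between these libraries.

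Monocytes leave the bone marrow largely as non-dividing cells, and macrophages in inflamed tissue can divide again, while some newly arrived cells are still finishing a cycle begun in the marrow. The cycle runs on waves of gene expression. In G1 and S phase, E2F transcription factors raise genes for copying DNA: the MCM helicase that unwinds it, the PCNA clamp that holds polymerases on it, and the enzymes that make deoxynucleotides. In G2 and mitosis a later wave, driven by the MMB complex with B-MYB, by FOXM1 and by NF-Y, raises cyclin B and its kinase, spindle motors, checkpoint proteins and the anaphase-promoting complex. DREAM holds the genes of both waves low in resting cells.

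Of the promoters of these genes that were found, 22 of 26 carry letters that such factors are known to bind. The sequences of 7 are shown to cover both waves. Sequences were taken from RefSeq on GRCm38.p6, a build other than the GRCm39 of the deposited values. The table of 300-base windows, from 250 bases before to 50 after each gene's start, held 26 of the 31 genes. Ccna2, Aurkb, Tpx2, Mcm4 and Stmn1 were not matched. Each printed stretch is 120 bases, read 5′ to 3′ on the gene's strand and wholly upstream of the annotated start. Cdk1 is at chr10:69352939-69353058, minus strand. Kif11 is at chr19:37376262-37376381, plus strand, Cdc20 at chr4:118437353-118437472, minus strand, Mki67 at chr7:135716380-135716499, minus strand and Top2a at chr11:99024190-99024309, minus strand. Rrm1 is at chr7:102441575-102441694, plus strand, and Mcm5 at chr8:75109389-75109508, plus strand. Capitals mark 4 motifs searched on both strands, so that each may appear as its reverse complement. The first is the CCAAT box, the letters that the factor NF-Y is known to bind. The second is TTTGAA, the cell cycle genes homology region or CHR, to which the DREAM and MMB complexes are known to bind. The third is TTCCCGC, a form of the site of E2F factors. The last motif, a different form of the E2F site, is TTGGCGC. This form can overlap a CCAAT box by 4 bases, as it does in Mcm7.
Cdk1: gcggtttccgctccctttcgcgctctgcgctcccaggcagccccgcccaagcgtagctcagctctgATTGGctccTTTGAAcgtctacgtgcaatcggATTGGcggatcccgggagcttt
Kif11: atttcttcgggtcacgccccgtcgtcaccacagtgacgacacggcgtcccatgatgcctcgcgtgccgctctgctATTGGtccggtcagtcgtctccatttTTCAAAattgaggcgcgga
Cdc20: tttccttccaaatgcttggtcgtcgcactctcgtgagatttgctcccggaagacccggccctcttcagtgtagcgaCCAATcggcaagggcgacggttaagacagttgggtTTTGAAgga
Mki67: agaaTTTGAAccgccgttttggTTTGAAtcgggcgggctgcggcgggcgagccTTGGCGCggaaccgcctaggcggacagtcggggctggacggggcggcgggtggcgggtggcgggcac
Top2a: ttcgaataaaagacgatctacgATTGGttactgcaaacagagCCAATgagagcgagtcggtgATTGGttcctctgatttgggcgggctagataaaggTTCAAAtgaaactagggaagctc
Rrm1: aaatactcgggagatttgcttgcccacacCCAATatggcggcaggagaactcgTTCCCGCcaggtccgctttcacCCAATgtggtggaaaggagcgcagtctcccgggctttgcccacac
Mcm5: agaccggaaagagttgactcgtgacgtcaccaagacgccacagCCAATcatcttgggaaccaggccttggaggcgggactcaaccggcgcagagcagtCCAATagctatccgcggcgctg

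The printed promoters of Cdk1, Kif11, Cdc20 and Top2a hold a CHR together with a CCAAT box, and that of Mki67 holds 2 CHR motifs and an E2F form. Those of Rrm1 and Mcm5 hold CCAAT boxes without a CHR, and that of Rrm1 also an E2F form. Further upstream, outside the printed stretches, Mcm5 also holds TTGGCGC and Mki67 also holds CCAAT boxes. Over the whole windows, TTTGAA was in 11 of the 16 mitosis genes matched, in 1 of the 9 replication genes (Mcm2) and in Hmgb2, against 17.9% of all 32851 windows in the table. CCAAT was in 14 of 16 mitosis genes, 7 of 9 replication genes and Hmgb2, against 37.4% of all windows. TTCCCGC was in 3 of 9 replication genes and in 0 of 16 mitosis genes, against 4.60% of windows, and TTGGCGC was in 3 of 9 and 3 of 16, against 2.45%. A gene with more than 1 window was counted once if any window held the motif. These are matches of letters only.

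Estimated depth ran from 16.7 to 43.2 M reads (M for mega) in wt libraries and from 27.8 to 46.5 M in mCAT libraries, and wt 7 was the shallowest. Expression is given as a normalised count, back-calculated from the deposited log2 values, and differences are on that log2 scale, where a gene with few counts shows a smaller difference than its counts would. All 13 macrophage markers were among the genes tested, and their summed normalised count was 1.10 to 4.70 M in wt and 0.954 to 3.80 M in mCAT libraries, most of it Lyz2. The T cell list (10 of 12 markers in the table) summed to 268 to 921 in wt and 157 to 411 in mCAT libraries, and all 10 markers had the lower mean in mCAT. The mCAT 3 library held 2909 normalised counts of the neutrophil granule gene Ngp and 1291 of Ltf, and wt 1 held 119 of the killer cell gene Gzma. Ngp was at most 150.1, Ltf at most 57.3 and Gzma at most 29.3 in the other libraries. Cat, the endogenous catalase gene, ran from 1042 to 2806 in wt and from 1739 to 3933 in mCAT libraries, overlapping, and whether transgene reads count toward Cat is not given. Ccr2, where the Cre sits, ran from 7578 to 22293 in wt and from 5327 to 14271 in mCAT libraries.

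Cell cycle transcripts were present in every library, replication genes mostly at higher levels than mitosis genes. Per kilobase of the longest annotated transcript, the mean over 14 libraries was highest for Pcna (2217 normalised counts), Hmgb2 (1573), Stmn1 (778), Mcm3 (618), Mcm4 (375) and E2f1 (329.7). It was lowest for the kinetochore genes Cenpf (2.46) and Cenpe (10.3) and for the spindle motor Kif11 (9.16), with Mki67 at 47.9. The 6 genes with the highest level per kilobase thus included no mitosis gene. The spread between libraries went the other way. The SD of the log2 values over the 14 libraries had a median of 0.518 over the mitosis genes and 0.378 over the replication genes, against 0.294 over all genes tested. Pcna (0.198), E2f1 (0.204) and Hmgb2 (0.226) had the smallest SD of the 31, and Ccnb2 (0.778) the largest. In bulk RNA, fewer dividing cells and less of a transcript per cell cannot be told apart.

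**Figure D1:**
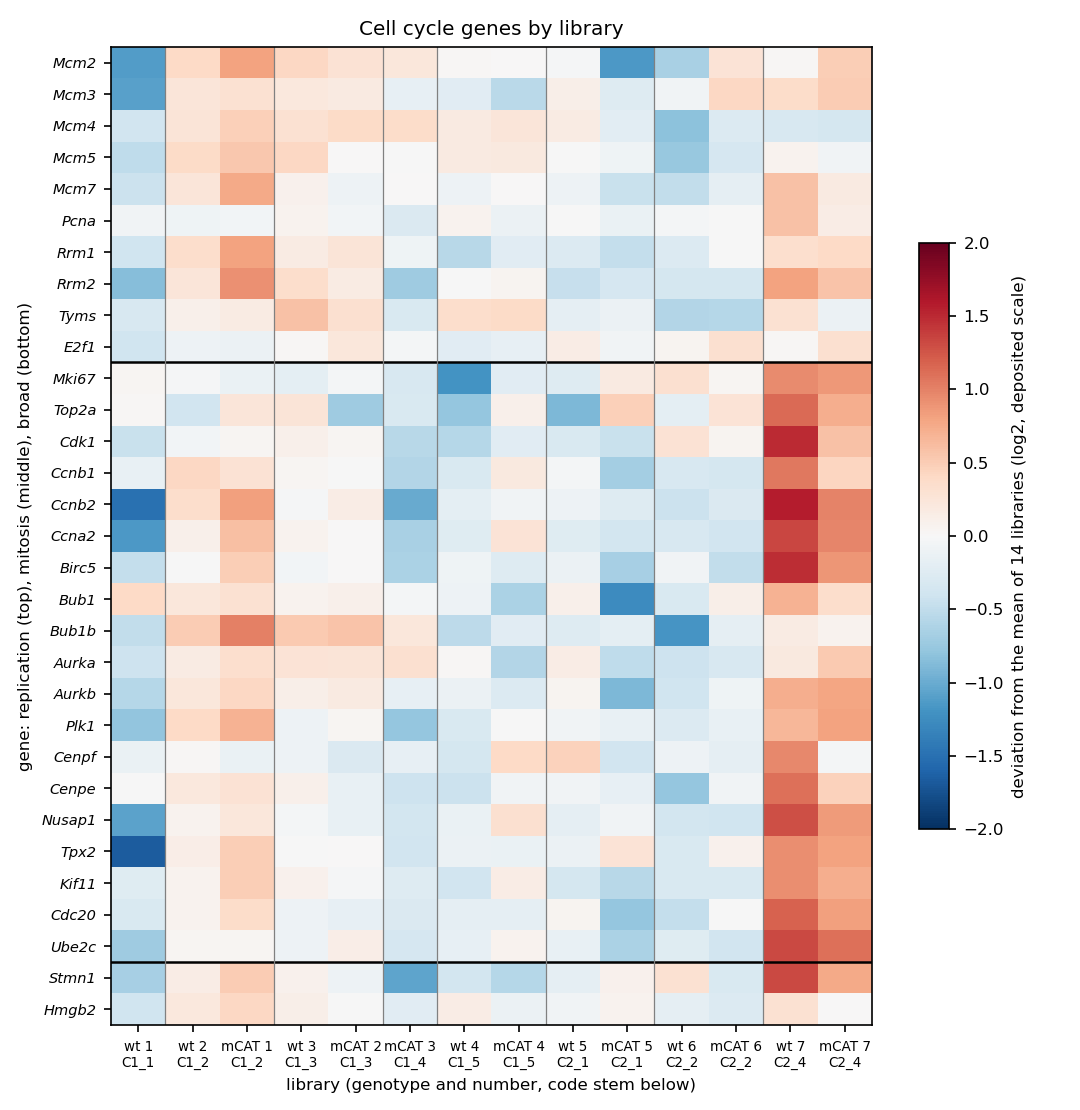
Deviation of each gene (rows) from its mean over the 14 libraries (columns, ordered by code stem), on the deposited log2 scale; grey lines separate stems and black lines separate replication, mitosis and broad genes. The 2 columns of stem C2_4 are red through most mitosis genes, and the column of wt 1 is blue for many genes of both classes.

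Among the replication genes, the helicase subunits differed in how far single libraries fell away. Mcm2 ranged from 184 in wt 1 to 727 in wt 3, median 529, among the wt libraries and from 177 in mCAT 5 to 994 in mCAT 1, median 655, among the mCAT libraries. It was lowest in mCAT 5 and wt 1, with wt 6 next, and the ranges overlapped. Mcm5 ranged from 290.5 in wt 6 to 796 in wt 3, median 604, among the wt libraries and from 425 in mCAT 6 to 874 in mCAT 1, median 568, among the mCAT libraries. It was lowest in wt 6 and wt 1 and highest in mCAT 1, with the genotypes overlapping. Mcm3, another subunit, spanned 782 in wt 1 to 2621 in mCAT 7, Mcm4 684 in wt 6 to 1864 in mCAT 1, and Mcm7 345 in wt 6 to 980.4 in mCAT 1.

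The clamp gene Pcna was even across libraries, ranging from 3136 in wt 2 to 5066 in wt 7, median 3310.0, among the wt libraries and from 2698 in mCAT 3 to 3687 in mCAT 7, median 3193, among the mCAT libraries. All libraries but wt 7 lay between 2698 and 3687. Rrm1 and Rrm2 encode the large and small subunits of ribonucleotide reductase, which makes deoxynucleotides. Rrm1 ranged from 618 in wt 4 to 1263 in wt 2, median 777, among the wt libraries and from 661 in mCAT 5 to 1769 in mCAT 1, median 964, among the mCAT libraries. Rrm2 ranged from 86.5 in wt 1 to 481 in wt 7, median 229, among the wt libraries and from 104 in mCAT 3 to 532 in mCAT 1, median 243, among the mCAT libraries. For both subunits mCAT 1 was the highest of the 14 libraries and both libraries of stem C2_4 were high, while Rrm2 was lowest in wt 1 and mCAT 3. Tyms, which makes thymidylate, ranged from 203 in wt 6 to 588 in wt 3, median 393, among the wt libraries and from 205 in mCAT 6 to 498 in mCAT 4, median 322, among the mCAT libraries. E2f1, an activator of S phase genes and itself a target of E2F, ranged from 658 in wt 1 to 1009 in wt 5, median 911, among the wt libraries and from 793 in mCAT 4 to 1155 in mCAT 7, median 867, among the mCAT libraries. E2f1 was highest in mCAT 7 and mCAT 6 and lowest in wt 1, and every replication gene had overlapping genotypes.

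Most of the mitosis genes were set apart by the 2 libraries of stem C2_4. Cdk1, the kinase of mitotic entry, ranged from 108 in wt 4 to 774 in wt 7, median 195, among the wt libraries and from 109 in mCAT 3 to 358 in mCAT 7, median 212, among the mCAT libraries. Its partner cyclins behaved alike. Ccnb1 ranged from 114 in wt 6 to 459.8 in wt 7, median 160.0, among the wt libraries and from 70.6 in mCAT 5 to 259 in mCAT 7, median 164, among the mCAT libraries. Ccnb2 ranged from 3.31 in wt 1 to 534 in wt 7, median 99.4, among the wt libraries and from 20.2 in mCAT 3 to 319.5 in mCAT 7, median 103, among the mCAT libraries. Ccna2, the cyclin of S and G2 phase, ranged from 36.8 in wt 1 to 614 in wt 7, median 139, among the wt libraries and from 81.8 in mCAT 3 to 455 in mCAT 7, median 181, among the mCAT libraries. Both C2_4 libraries were the 2 highest of 14 for all 4 genes, and wt 1 was the lowest for Ccnb2 and Ccna2, with mCAT 3 next. The genotype ranges overlapped for each.

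Common markers of dividing cells had the same 2 libraries on top. Mki67 encodes the Ki-67 protein that coats mitotic chromosomes, and it ranged from 138 in wt 4 to 970.0 in wt 7, median 439, among the wt libraries and from 334 in mCAT 3 to 907 in mCAT 7, median 431, among the mCAT libraries. Top2a, the topoisomerase that untangles replicated DNA, ranged from 48.2 in wt 5 to 479 in wt 7, median 128, among the wt libraries and from 65.3 in mCAT 2 to 333 in mCAT 7, median 207, among the mCAT libraries. Aurkb, the kinase of the chromosomal passenger complex, ranged from 87.4 in wt 1 to 354 in wt 7, median 182, among the wt libraries and from 53.3 in mCAT 5 to 375 in mCAT 7, median 157, among the mCAT libraries, and Birc5, survivin of the same complex, from 46.3 in mCAT 5 to 519 in wt 7. All 4 were highest in the C2_4 libraries, and the wt library at the low end was a different one for Mki67 (wt 4), Top2a (wt 5) and Birc5 and Aurkb (wt 1).

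Of the checkpoint genes Bub1 and Bub1b, Bub1 came close to that order, with only wt 1 (91.4) between the C2_4 libraries. Bub1b did not share it. Bub1, a spindle checkpoint kinase, ranged from 28.2 in wt 6 to 134 in wt 7, median 60.6, among the wt libraries and from 0 in mCAT 5 to 86.3 in mCAT 7, median 59.8, among the mCAT libraries; mCAT 5 stood at the table's lowest value, which corresponds to a normalised count of 0. Bub1b, the checkpoint protein BubR1, ranged from 247 in wt 6 to 1046 in wt 3, median 562, among the wt libraries and from 573 in mCAT 4 to 1520.2 in mCAT 1, median 731, among the mCAT libraries. The 4 highest libraries for Bub1b were those of stems C1_2 and C1_3, above both C2_4 libraries. Ube2c, the ubiquitin-conjugating enzyme of the anaphase-promoting complex, ranged from 43.9 in wt 1 to 462 in wt 7, median 102, among the wt libraries and from 50.2 in mCAT 5 to 381 in mCAT 7, median 129, among the mCAT libraries, and Cdc20, an activator of that complex, spanned 52.9 in mCAT 5 to 468 in wt 7. Nusap1, which bundles spindle microtubules, ranged from 8.02 in wt 1 to 343 in wt 7, median 69.5, among the wt libraries and from 44.8 in mCAT 6 to 227 in mCAT 7, median 76.1, among the mCAT libraries. For Ube2c, Cdc20 and Nusap1 the 2 highest libraries were again those of stem C2_4.

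Among the remaining spindle and kinetochore genes, wt 7 often held the highest value, but Plk1, Aurka and Cenpf did not have both C2_4 libraries on top. For Plk1, mCAT 1 (157) lay above wt 7 (150), and for Aurka mCAT 1 (256) lay above wt 7 (222). For Cenpf, wt 5 (56.1) lay above mCAT 7 (20.6). Plk1, a mitotic kinase, spanned 11.2 in wt 1 to 174 in mCAT 7. Aurka, a spindle pole kinase, spanned 90.5 in mCAT 4 to 306 in mCAT 7, and Tpx2, its activator, 2.31 in wt 1 to 340.1 in wt 7. Tpx2 was near the floor in wt 1 and at least 78.9 in every other library. Cenpe, a kinetochore motor, spanned 15.1 in wt 6 to 259.8 in wt 7, Kif11, which pushes spindle poles apart, 8.10 in mCAT 5 to 141 in wt 7, and Cenpf, a kinetochore protein, 6.69 in mCAT 5 to 113 in wt 7.

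The 2 broad genes differed from each other. Stmn1, which destabilises microtubules, ranged from 430.4 in wt 1 to 2048 in wt 7, median 799, among the wt libraries and from 303 in mCAT 3 to 1338 in mCAT 7, median 688, among the mCAT libraries, with the C2_4 libraries on top. Hmgb2, a chromatin protein that is abundant in dividing cells, ranged from 3084 in wt 1 to 5059 in wt 7, median 4432, among the wt libraries and from 3376 in mCAT 6 to 5461 in mCAT 1, median 4075, among the mCAT libraries, a narrow range whose highest library was mCAT 1. Reads of Hmgb2 may be shared with the near-identical processed pseudogene Gm4739 (99.7% identity over 633 bases, mean normalised count 449), and Ccna2 overlaps Exosc9 by 431 bases at its end in libraries that keep no strand information, so the levels of both are uncertain to that extent. Ccnb1, Mcm7, Stmn1 and Rrm2 also have pseudogenes of at least 95% identity that were not analysed here, and Pcna has Pcna-ps2 (mean 0.968). A stretch of Tyms matches repeats in other genes.

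The first comparison asks whether macrophages with catalase directed to mitochondria differed from wt macrophages in these genes. None of the 31 passed the test, and no marker of dividing cells had a difference larger than the spread between libraries (0 of 31 called by limma with Benjamini-Hochberg adjustment, where 0.198% of all genes tested were called, 24 of 12096). At an unadjusted p under 0.05 the count was also 0 of 31, against 5.37% of all genes tested. The log2 differences, mCAT minus wt, had a median of 0.06 over the 31, 0.10 over replication genes and 0.01 over mitosis genes, against -0.00 over all genes tested, with 18 genes above 0 and 13 below. They ran from -0.31 for Bub1 to 0.36 for Bub1b.

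The 3 genes of smallest p were Bub1b (mean normalised count 656 ± 309 in wt and 849 ± 349 in mCAT; SD, 7 libraries each), Bub1 (69.4 ± 35.0 and 49.7 ± 32.9) and Pcna (3562 ± 679 and 3169.9 ± 301). Each had an adjusted p of 0.878 by limma. For Mki67 the log2 difference was 0.10 with a 95% interval from -0.43 to 0.63. For Cdk1 it was -0.15, from -0.71 to 0.41. Over the 31 genes the intervals reached as low as -0.81 (Stmn1) and as high as 0.94 (Tpx2). On the deposited log2 scale, single genes may differ by up to those sizes within the error of 7 libraries each. These limits do not bound the change in counts of genes with few counts. Cenpf had mean normalised counts of 36.0 in wt, with wt 7 at 113, and 18.9 in mCAT, at a log2 difference of -0.22. The T cell markers, all lower on average in mCAT, moved with the genotype, and their part in these values was not tested. With the code stem as a block, 0 of 31 were called (0.314% of all genes tested), 1 had an unadjusted p under 0.05 (Bub1b, 9.24% of all genes), and the median of the 31 was -0.00.

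**Figure D2:**
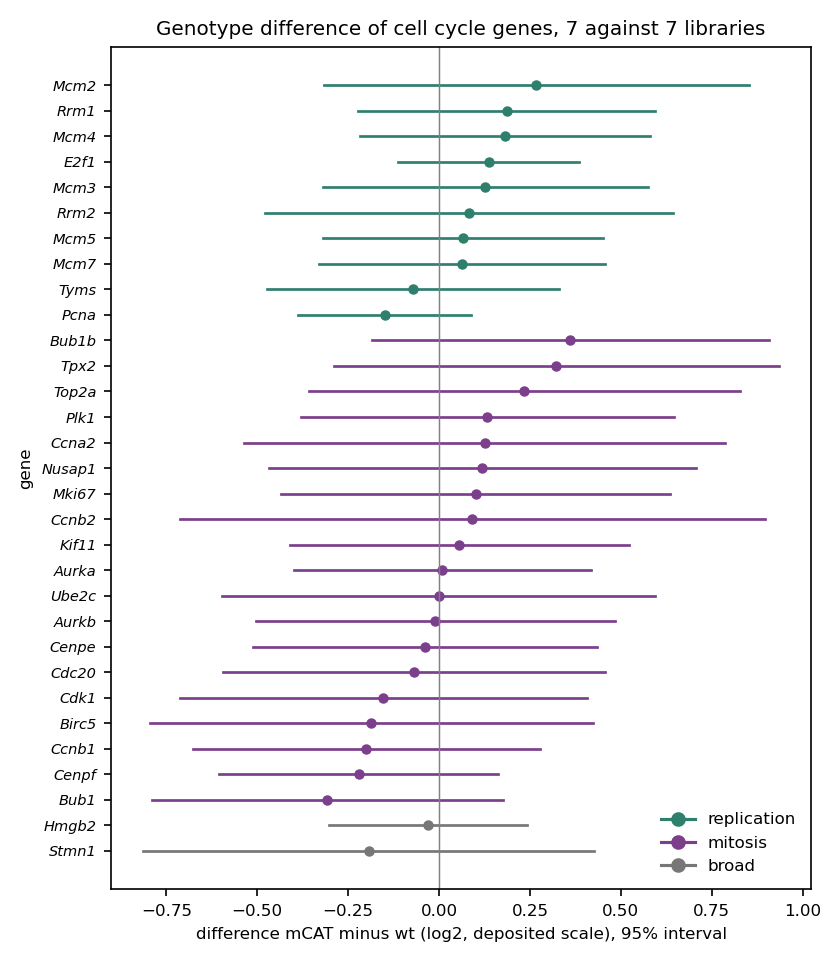
Difference between mCAT and wt (log2, deposited scale) for each of the 31 genes, with the 95% interval from limma over 7 against 7 libraries; colours give replication, mitosis and broad genes. Every interval crosses 0, and the points lie between -0.31 and 0.36.

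The second comparison asks whether the levels followed the code stem. Most of the 31 genes differed among the 6 stems that hold both genotypes: 23 were called by limma's moderated F test (12 libraries, genotype in the model, Benjamini-Hochberg adjustment), where 23.4% of all genes tested were called. The called genes were 15 of 19 mitosis genes, 7 of 10 replication genes and Stmn1. The 6 with the smallest p were Ube2c (adjusted p 0.000903), Ccnb2 (0.00113), Bub1b (0.00173), Ccna2 (0.00220), Rrm1 (0.00299) and Nusap1 (0.00369). The median F was 7.07 over the 31 and 2.24 over all genes tested. Not called were Aurka, Bub1, Cenpf, Top2a, Mcm2, Pcna, E2f1 and Hmgb2. Without stem C2_4 the count was 7 of 31, against 18.0% of all genes: Bub1b, Ccnb2, Mcm4, Mcm5, Rrm1, Rrm2 and Tyms. Without any other single stem it was 18 to 23, and the shares of all genes called in those fits are not given here. Cell type markers differed by stem in the same test: those called were 11 of 13 macrophage, 5 of 5 neutrophil, 4 of 5 microglia, 4 of 6 B cell, 4 of 6 dendritic cell, 2 of 4 granulocyte progenitor, 2 of 8 T cell, 3 of 3 endothelial, 3 of 3 oligodendrocyte and 1 of 4 astrocyte markers tested. The 2 NK cell markers and the 1 fibroblast marker tested were not called, nor were they at an unadjusted p under 0.05. The part of these markers in the members' result was not tested.

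The stem with the highest mitosis genes was C2_4, whose libraries are wt 7 and mCAT 7; what follows was chosen after the values were seen and is a description. Both libraries lay above all 12 others for 16 of the 31 genes, against 3.27% of all genes tested. Those were 14 of the 19 mitosis genes, Pcna and Stmn1. Among mitosis genes the mean of the 2 libraries over the mean of the other 12 had a median of 3.12, from 1.02 (Bub1b) to 4.25 (Ube2c); among replication genes it had a median of 1.26, from 0.716 (Mcm4) to 1.94 (Rrm2), and over all genes tested 0.981. Ube2c stood at 462 in wt 7 and 381 in mCAT 7, against 43.9 to 143 in the other 12 libraries. Birc5 stood at 519 in wt 7 and 307 in mCAT 7, against 46.3 to 211 in the other 12 libraries, and Kif11 at 141 in wt 7 and 111 in mCAT 7, against 8.10 to 81.0 in the other 12 libraries. For each of these 3 the lower C2_4 library was above the highest of the others, while Mcm4, at 1015 in wt 7 and 994 in mCAT 7, against 684 to 1864 in the other 12 libraries, lay within their range. The wt 7 library had few reads, estimated at 43.6 for Cenpf and 54.2 for Kif11, so its lowest genes carry counting error. The mCAT 7 library had an estimated depth of 41.9 M reads.

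**Figure D3:**
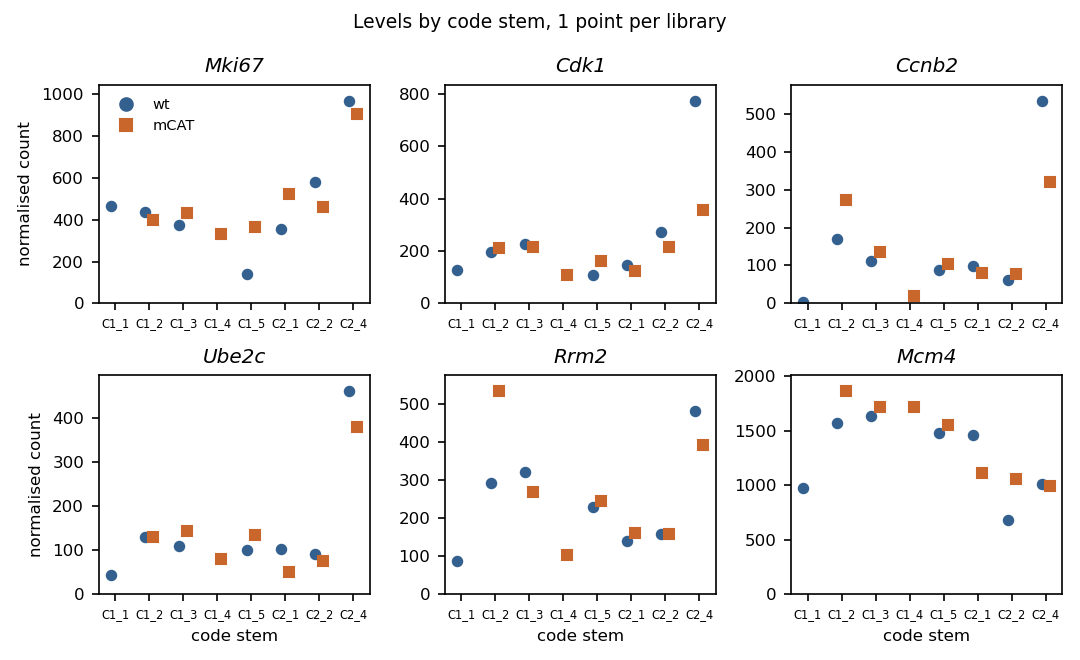
Normalised count (vertical axis, from 0) by code stem for 6 genes, 1 point per library, circles for wt and squares for mCAT. Mki67, Cdk1, Ccnb2 and Ube2c are highest in both C2_4 libraries, Rrm2 is highest in mCAT 1 (532) with the C2_4 libraries next, and Mcm4 in C2_4 lies within the other libraries.

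Other cell types' markers in these 2 libraries gave mixed values, and their part in the result was not tested. The T cell list summed to 713 in wt 7, against 268 to 921 in the other wt libraries. In mCAT 7 it summed to 411, against 157 to 393 in the other mCAT libraries. The granulocyte progenitor list summed to 684853 in wt 7 and 474071 in mCAT 7, against 152989 to 1004380 in the other libraries, nearly all of it Chil3. Of its other markers, Elane stood at 0 in both libraries against 0 to 32.6, and Mpo at 1.65 and 0 against 0 to 8.58. Ctsg stood at 10.4 and 0 against 0 to 17.2, and Prtn3 at 108 and 179 against 159 to 719. Ngp stood at 38.7 and 4.89 against 0 to 2909, and Ltf at 10.7 and 7.51 against 0 to 1291. Several of these levels are a few reads, as 1 read of wt 7 is worth 2.59 normalised counts. Camp, an antimicrobial peptide of granules, stood at 46.6 and 23.3 against 1.78 to 393. The NK cell list summed to 106 and 76.5, against 0 to 213, and the dendritic cell list to 674 and 652, inside the 401 to 1416 of the other libraries. The microglia list summed to 70142 and 58120, against 16764 to 70438, the neutrophil list to 12753 and 13839, against 10184 to 40090, and the B cell list to 3789 and 4030, against 759 to 5210, mostly Cd22. Of the markers tested, both C2_4 libraries lay above the others for 1 of 13 macrophage genes (Lyz2) and 1 of 3 oligodendrocyte genes (Mag, 1095 and 1077 against at most 834), and for 0 of 8 T cell, 0 of 6 B cell, 0 of 2 NK cell, 0 of 5 neutrophil, 0 of 4 granulocyte progenitor, 0 of 6 dendritic cell, 0 of 5 microglia, 0 of 3 endothelial, 0 of 4 astrocyte and 0 of 1 fibroblast genes, where 3.27% of all genes tested did. With lists this short, a count of 0 is near that background. The median ratio of the C2_4 libraries to the others was above 1 for microglia (1.74, 5 of 5 genes above 1), T cell (1.57, 7 of 8), NK cell (1.63, 1 of 2) and macrophage markers (1.32, 10 of 13). It was below 1 for dendritic cell (0.733), B cell (0.864), neutrophil (0.532), granulocyte progenitor (0.220), endothelial (0.271), oligodendrocyte (0.582), astrocyte (0.809) and fibroblast markers (0.229). The macrophage list was highest in these libraries, at 4.70 M and 3.80 M against at most 3.43 M elsewhere. Csf1r, the receptor for macrophage growth factor, stood at 48637 and 77100.2, within the 27045 to 78177 of the others.

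Over the 6 stems that hold both genotypes, the 2 classes had nearly the same order, and only neighbouring stems changed places. The mean deviation of the mitosis genes from their means over 14 libraries, in log2 units, was 0.84 for stem C2_4, 0.25 for C1_2, 0.02 for C1_3, -0.20 for C1_5, -0.23 for C2_2 and -0.25 for C2_1. The replication genes were highest in C1_2 (0.33), followed by C2_4 (0.24) and C1_3 (0.21), with C1_5 at -0.02, C2_1 at -0.20 and C2_2 at -0.24. C2_4 and C1_2 were the 2 highest stems in both classes, with C2_4 first for mitosis genes and C1_2 first for replication genes, and whether the classes differ in this was not tested. The unpaired wt 1 was lowest in both classes, at -0.51 and -0.55. It was the lowest of 14 libraries for 10 of the 31 genes, against 20.9% of all genes tested, and its T cell and NK cell lists were the highest of the 14 (921 and 213); their part was not tested. For the wt and mCAT partner of each stem, mitosis means were 1.01 and 0.67 in C2_4, 0.13 and 0.36 in C1_2, and 0.05 and -0.00 in C1_3. They were -0.32 and -0.07 in C1_5, -0.12 and -0.37 in C2_1, and -0.31 and -0.16 in C2_2. Both partners were on the same side of 0 in each stem but C1_3, where both were near it.

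**Figure D4:**
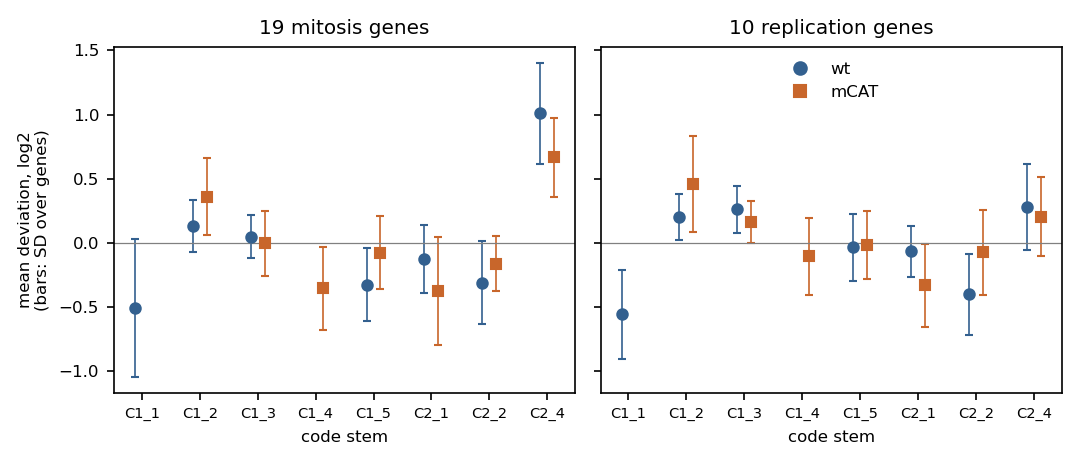
Mean deviation (log2) of the 19 mitosis genes and of the 10 replication genes from their means over 14 libraries, by code stem, circles for wt and squares for mCAT; bars are the SD over genes. Both C2_4 libraries stand above the rest for mitosis genes, and lie within the range of the others for replication genes.

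The third comparison asks whether C2 libraries differed from C1 libraries. None of the 31 genes was called by limma (C2 minus C1, genotype in the model, code stem as a random block with correlation 0.463, 6 against 8 libraries; 2.71% of all genes tested were called). At an unadjusted p under 0.05 there were 3 (17.1% of all genes tested): Mcm4 at a log2 difference of -0.51 (adjusted p = 0.143), Mki67 at 0.60 (adjusted p = 0.224) and Stmn1 at 0.64 (adjusted p = 0.261). Mcm4 had a mean of 1565 ± 268 in C1 and 1054 ± 251 in C2 (SD), and all 6 C2 libraries lay below every C1 library but wt 1. It passed the test without wt 1 (-0.61, adjusted p = 0.0277) or without wt 5 (-0.61, adjusted p = 0.0448), and without the random block (adjusted p = 0.0352), where 7.47% of all genes tested were called. The median log2 difference was 0.17 over the 31, 0.31 over mitosis genes (16 above 0, 3 below), -0.08 over replication genes (4 above 0, 6 below) and -0.01 over all genes tested. Without both C2_4 libraries the median of the 31 was -0.18, with 0 of 31 called (0.579% of all genes), so the sign of the median rested on that stem.

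The fourth comparison asks whether the genotype difference itself differed between C1 and C2 libraries. None of the 31 was called, as none of all 12096 genes was (0% called; the difference of differences is C2 minus C1). At an unadjusted p under 0.05 there was 1 of 31, against 0.852% of all genes tested: Cenpf at -0.74 (unadjusted p = 0.0373 by limma, not called after adjustment). The median was -0.22 over the 31 genes, with 29 below 0 and 2 above, and 0.00 over all genes tested. Within C1 libraries alone the median genotype difference of the 31 was 0.15 (4 against 4 libraries), and within C2 alone -0.11 (3 against 3). Without wt 7 the median difference of differences was 0.07, and without mCAT 7 it was -0.50. The sign of that median thus turned when wt 7 was left out.

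The mitosis genes were correlated with each other across libraries. Pearson r between pairs of the 19 mitosis genes over 14 libraries had a median of 0.633, with 170 of 171 pairs above 0. Between pairs of the 10 replication genes it was 0.470, and between a mitosis and a replication gene 0.480, where pairs among 1 in 4 of all genes tested gave a median of -0.00. Without stem C2_4 the medians were 0.434, 0.492 and 0.502, so the lead of the mitosis genes was not seen in the other 12 libraries. Partners share a stem and all libraries share their scaling, and the values are descriptions.

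The 10 genes outside the list whose log2 values were most like the mean of the mitosis genes, by Pearson r over 14 libraries, were Prc1 (0.946), Pimreg (0.919), Pclaf (0.903), Racgap1 (0.901), H2-Oa (0.896), Spint2 (0.894), Sp110-ps2 (0.893), Cdca3 (0.892), Hp (0.891) and Map3k10 (0.882). Prc1 and Racgap1 act at the central spindle in cytokinesis, Pclaf binds PCNA, and Cdca3 is a cell division gene; H2-Oa belongs to antigen presentation and Hp encodes haptoglobin. Prc1 stood at 429 in wt 7 and 255 in mCAT 7, against 36.6 to 178 in the other 12 libraries. Haptoglobin, which is no cell cycle gene, stood at 42847 and 34102 against 11189 to 27968. Without stem C2_4, r for these genes was between 0.539 and 0.821. By Spearman rho, 0 of the 10 were among the 10 most alike.

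Other genes of the cycle were followed in lists of genes outside the 31. By genotype, 0 of 44 further replication genes, 0 of 52 further mitosis genes, 0 of 11 genes of G1 entry and 0 of 9 growth factor receptor and related genes were called, against 0.198% of all genes tested. The 2 of smallest p were Rpa3 and Orc6 for replication (log2 differences -0.36 and -0.25), H2az1 and Espl1 for mitosis (-0.30 and 0.30), Tfdp1 and Myc for G1 entry (0.23 and -0.21), and Csf1r and Klf4 for growth factor receptors (0.54 and -0.23), none called. Of 20 genes tested in a list of cycle inhibitors and related genes, 1 was called, the antiproliferative gene Btg2. It fell by 0.79 on the log2 scale (standard error 0.14, adjusted p = 0.0224 by limma), from 87072 ± 16155 in wt to 49817 ± 6158 in mCAT (SD, 7 libraries each). Btg2 is near Ptprc, the gene of the CD45 alleles by which donor cells were told apart, and the effect of that linked stretch and the effect of mCAT cannot be told apart.

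By prefix, 1 further mitosis gene, 1 G1 gene and 1 inhibitor were called (2.71% of all genes). Lmnb1, lamin B1, was lower in C2 libraries (log2 difference -0.89, standard error 0.22, adjusted p = 0.0406), as was Ccnd3, cyclin D3 (-0.85, standard error 0.19, adjusted p = 0.0187), while Gadd45b, a stress-induced inhibitor, was higher (1.27, standard error 0.21, adjusted p = 0.00221). With 0 of 44 replication genes and 0 of 9 growth factor receptor genes called, those of smallest p were Rfc2 and Rpa2 (log2 differences 0.42 and -0.30) and Csf2rb and Flt3 (-0.52 and -0.94). No gene of these lists was called for the interaction of genotype and prefix.

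By stem, against 23.4% of all genes tested, 23 of 52 further mitosis genes and 4 of 44 replication genes (Lig1, Slbp, Dnmt1 and Gmnn) were called. So were 5 of 11 G1 genes (Ccnd1, Ccnd2, Ccnd3, Myc and Cdk6) and 11 of 20 genes of the inhibitor list. The further mitosis genes called were Lmnb1, Kif23, Prc1, Racgap1, Anln, Ndc80, Kif20b, Cdca3, Ttk, Cks2, Nek2, Cenpm, Dlgap5, Pbk, Kif20a, Ckap2, Tubb4b, Ncapd2, Tacc3, Kif2c, Knl1, Sgo2a and Kif4. The called genes of the inhibitor list were Gadd45b, Cdkn1a, Cdkn2d, Rb1, Gadd45a, Ccng2, Tob1, Cdkn2c, Btg2, Lin9 and Rbl2. Lin9 encodes a subunit of both DREAM and MMB and is not an inhibitor in itself. Kif23, a motor of cytokinesis, stood at 248 in wt 7 and 174 in mCAT 7 against 0 to 146 in the other 12 libraries. Both C2_4 libraries lay above the other 12 for 25 of 52 further mitosis genes, with a median ratio of 1.99. Over all genes tested this share was 3.27%, with a median ratio of 0.981. For replication genes the count was 3 of 44 (median ratio 1.24), for G1 genes 0 of 11 (0.955) and for growth factor receptor genes 0 of 9 (0.830). For the inhibitor list it was 1 of 20 (1.17). In lists of this size, the counts other than that of the mitosis genes are near the share over all genes. Ccnd2, cyclin D2, stood at 1071 and 1014 in the C2_4 libraries, within the 263 to 4012 of the others. The inhibitor Cdkn1a, p21, stood at 14458 and 20085, against 13086 to 42973 in the other 12.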

How the data were processed

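RNA sequencing libraries were made from sorted cells with Smart-seq2 from polyadenylated RNA and sequenced as paired ends, per the labels' protocols. The submitters' processing notes name FastQC, fastp, Salmon and the build GRCm39, without versions or annotation. The authors deposited log2 values, although the table is titled as raw counts: all 14 libraries share 1 lowest value (5.96), as variance-stabilised counts would. Inverting that form gave the normalised count (0 at that value). The size of 1 read was estimated from low values, of which 52.5% to 72.8% per library lay within 0.15 of whole reads, so depth is approximate. Depth describes counting error only.

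Genes with a normalised count of at least 10 in at least 7 libraries were tested with limma 3.58.1 (R 4.3.3; mean-variance trend, robust moderation) on the deposited log2 values. P-values were 2-sided and adjusted by Benjamini-Hochberg over 12096 genes at 0.05. Comparisons were genotype, prefix, stem and genotype by prefix; scripts were tested on simulated data. Alternatives covered filters, scaling, variance model, blocks and each library left out. The stem was taken to pair libraries because deviations from group means correlated in all 6 pairs (0.232 to 0.659). For stem C2_1 (0.232) the partner was not the best match. Title numbers 1 to 3 gave -0.294, 0.158 and 0.252. These correlations came from the same deposited values that the stem comparison used. Full values were named by a rule covering common markers, called genes (up to 6 per comparison) and the 3 genotype genes of smallest p. Members and lists were chosen with earlier results of these data known. Transcript lengths and copies came from GENCODE M21 on GRCm38 (at least 95% identity over at least 300 bases). Calls by stem in the growth factor receptor list are not reported here.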

Additional observations from a re-analysis of the deposited data

Results flagged for a closer look

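Within a genotype, 9 of 62 groups of 7 libraries (31 genes, 2 genotypes) held 1 library far from the nearest other. Its gap, as a share of the group's range on the deposited log2 scale, exceeded Dixon's 95% critical value for 7 values. For independent groups chance gives about 1 in 20. The genes share the same libraries and are correlated, so the 9 cannot be set against that share. On the normalised count scale, which stretches high values, 18 of 62 groups were flagged, so the number depends on the scale. The 9 on the log2 scale follow, with their values as normalised counts. Among wt libraries, wt 7 was the highest for Pcna (normalised count 5066, next 3508), Cdk1 (774, next 274), Birc5 (519, next 120), Kif11 (141, next 42.9), Cdc20 (468, next 162) and Ube2c (462, next 129). Among mCAT libraries, mCAT 7 was the highest for Mki67 (907, next 523). These 7 flags fell on the 2 libraries of stem C2_4. The other 2 were low values in helicase genes: Mcm2 in mCAT 5 (177, next 521) and Mcm3 in wt 1 (782, next 1518).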

How the results depend on the processing

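By genotype, 0 of 31 genes were called in the main comparison and under all 29 alternatives. That includes the replicate block by title number (0) and by code stem (0), and 3 alternatives without C2_4 or wt 1 that were chosen after seeing the data; the smallest adjusted p was 0.460. The median of the 31 changed sign with the stem block (-0.00), within C2 (-0.11) and without wt 1 (-0.05), mCAT 1 (-0.04), wt 6 (-0.02) or mCAT 7 (-0.04). By prefix, 0 genes were called, 1 without the random block (Mcm4), and 0 to 1 when each library was left out. By stem, 23 genes were called, 20 to 23 under other filters, scalings and variance models, and 7 to 23 when each stem was left out. The 7 were without C2_4, where 18.0% of all genes tested were called. The shares of all genes called under the other stem alternatives are not given here. For the interaction the count was 0 under all 23 alternatives; 2 of these, and 2 for the prefix, were also chosen after seeing the data. The 10 genes most like the mitosis genes by Pearson r shared 0 genes with the 10 by Spearman rho. No called gene reversed. The causes of these changes were not tested. Depth limits the low genes of wt 7, where 1 read is worth 2.59 normalised counts.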
